A study of Mus musculus with 8 samples.

Results

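The germline genes described here are 35 mouse genes that are normally active in developing eggs and sperm, and they were followed through the DNA methylation of proximal colon organoids. Every 200 bp tile that overlapped the annotated span of a gene plus 2 kb on either side was taken. Of the 35 genes, 21 carried at least 1 listed tile (60.0%, against 44.9% of all protein-coding genes) and 14 carried 0. A tile is counted as 1 listing in each comparison that lists it, and the 71 listings at these genes fall on 57 distinct tiles, out of 75041 listings in all. The reference set was the 21900 protein-coding genes with a position in the annotation, to which all 35 belong.

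Organoids were grown from colon crypts of male mice about 40 days old that were heterozygous for a Cre-activable BrafV600E allele, written Braf+/LSL. The V600E change locks the BRAF kinase in its active state and so drives MAPK signalling. In the BrafV600E organoids a Cre-carrying lentivirus activated the allele. They were cultured for 5 months, with 3 further weeks in Base medium, from which niche factors are left out. Their controls were infected with the empty lentiviral vector, kept for 5 months and grown in full medium with Wnt3a, R-Spondin, Noggin and EGF. Long-cultured organoids with the empty vector, at 12 months for line 1 and at 14 months for line 3 and in full medium, were set against empty-vector organoids kept for 2 months in full medium. All empty-vector organoids therefore carried the unrecombined BrafV600E allele. The 3 further weeks of culture apply to all 4 groups. Each of the 4 groups has 2 libraries, 1 from organoid line 1 and 1 from organoid line 3. Oncogene and medium change together in the BrafV600E comparison and cannot be told apart. A source label of the line 1 BrafV600E library names line 3, and a culture-time label of the 14-month library gives 2 months; the titles were followed for both, and counts are given by line. The files hold no expression values, so the colon label could not be checked against marker genes.

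Methylation was read by reduced representation bisulfite sequencing, which sequences CpG-rich restriction fragments after bisulfite treatment. The values are the authors' deposited tables of within-line differences, each of 1 library against 1 library. Listed tiles differ by 20 or more percentage points, with q-values no higher than 0.01. A positive difference is a gain in BrafV600E or in long-cultured organoids, and a negative one a loss. The tables give no read counts, so the depth behind a tile is unknown, and a tile that is not listed may be unchanged, changed by less than the limit or not covered. The tables used here hold no level per library and leave out tiles short of the limits, so no test over samples was made. The 2 lines are the replicates of each comparison.

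Germline genes are silenced in body tissues, in mice for many of them through DNA methylation of a CpG-rich start region laid down around implantation. A repressor complex with E2F6, MGA and MAX, a variant Polycomb complex, binds many of them, MGA and MAX through the E-box and E2F6 through an E2F-type motif. The genes fall into several kinds of work. Synaptonemal complex, chromosome axis and cohesin genes pair and hold meiotic chromosomes, and piRNA pathway genes silence transposons in germ cells. Others encode germ cell RNA-binding proteins and transcription regulators, testis versions of housekeeping proteins, and cell surface, intercellular bridge or egg coat proteins. The human SYCP1 and HORMAD1 proteins are known as cancer-testis antigens, which some tumours make outside the germ line.

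Losses outnumbered gains at the germline genes with BrafV600E in line 3, and no such excess appeared in line 1. With BrafV600E, line 1 had 7 gained and 4 lost tiles and line 3 had 9 gained and 26 lost tiles at the germline genes. After long culture, line 1 had 2 gained and 7 lost tiles and line 3 had 12 gained and 4 lost tiles. The balance therefore lay on opposite sides in the lines in both comparisons. The share of gains with BrafV600E was 63.6% in line 1 and 25.7% in line 3 at the germline genes, against 71.8% and 47.9% in lines 1 and 3 over the windows of all genes. After long culture it was 22.2% in line 1 and 75.0% in line 3 at the germline genes, against 47.8% and 78.4% over all genes. The order of the lines was thus that of all genes in each comparison.

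Counted by gene, a lost tile with BrafV600E in line 3 was carried by 14 of 35 germline genes, or 40.0%, beside 20.3% of all genes. A gained tile in the same comparison was carried by 7, or 20.0%, beside 20.9% of all genes. In line 1 with BrafV600E, 4 germline genes carried a loss (11.4%, against 10.5% of all genes) and 5 a gain (14.3%, against 17.8%). After long culture, 7 carried a loss in line 1 (20.0%, against 10.9% of all genes) and 4 in line 3 (11.4%, against 12.2%). Gains after long culture were found at 2 germline genes in line 1 (5.71%, against 8.54% of all genes) and at 7 in line 3 (20.0%, against 20.3%). The shares of germline genes with a gain were thus near or below the background in all 4 within-line comparisons, and the shares with a loss stood above it with BrafV600E in line 3 and after long culture in line 1. The median span of the germline genes is longer than that of genes at large, at 27914 bp against 17146 bp, and a longer window can hold more tiles. Per megabase of window, line 3 with BrafV600E had 15.9 lost tiles at the germline genes and 9.08 at all genes, and line 1 after long culture had 4.28 and 2.91. These differences were not tested, since the members of a gene list are not replicates. The genes were also chosen with earlier results of these data known.

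**Figure D1:**
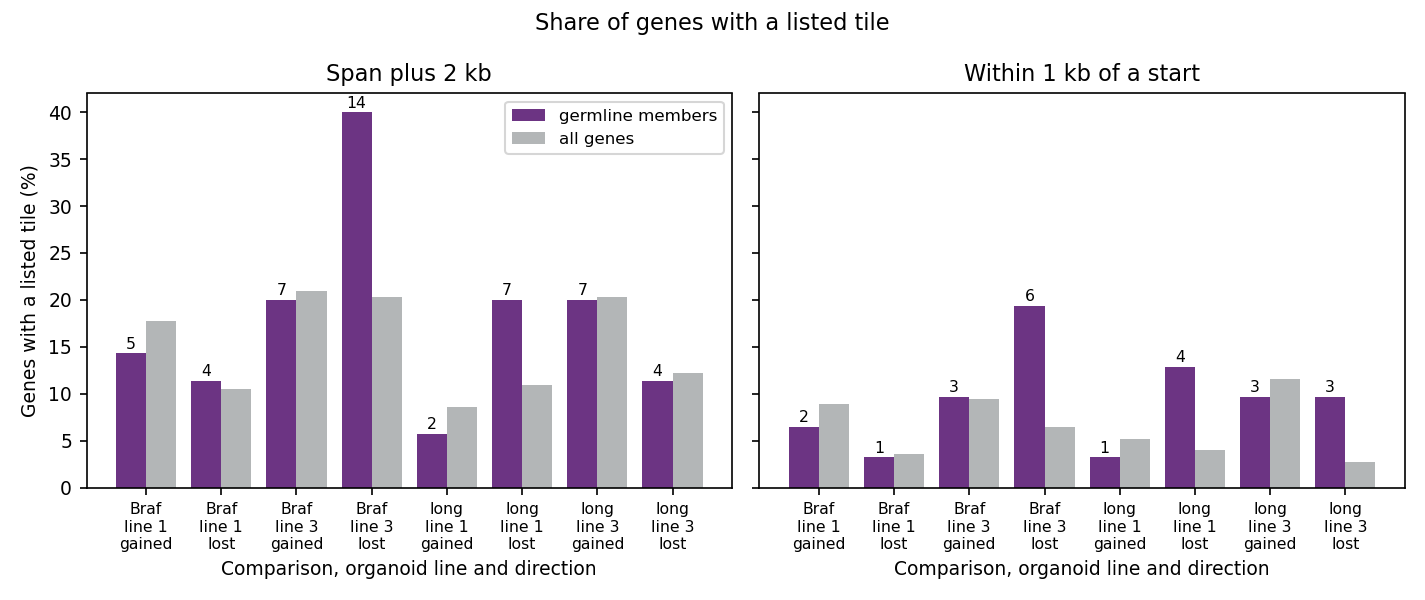
Share of genes with a listed tile, in percent, for germline members and all genes, by comparison (Braf, BrafV600E against empty vector; long, 12 or 14 months against 2 months), organoid line and direction; numbers over the bars count members. The left panel uses the span plus 2 kb (35 members) and the right panel the tiles within 1 kb of an annotated start (31 members); 14 members lost methylation with BrafV600E in line 3, or 40.0% against 20.3% of all genes.

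With BrafV600E 19 germline genes had a tile in either line (54.3%, against 38.3% of all genes), 10 of them a gain (28.6%, against 27.4%) and 15 a loss (42.9%, against 24.8%). Of these 15, 14 had a loss in line 3 and 4 in line 1. Tiles in both lines were found at 6 germline genes (17.1%, against 18.0% of all genes). After long culture 14 had a tile in either line (40.0%, against 31.3%), 7 of them a gain (20.0%, against 22.3%) and 9 a loss (25.7%, against 19.0%). Tiles in both lines were then found at 4 (11.4%, against 12.3%). Of those 6 genes, Piwil2 and Dmrtb1 had losses alone in both lines, and Syce1, Tdrd1, Tdrd6 and Dazl had tiles of both directions. Of those 4 genes, Dmrtb1 and Slc25a31 had losses alone in both lines, and Tdrd6 and Tex14 had both directions. No germline gene had gains alone in both lines of either comparison. The share of all genes with 1 direction in both lines was not counted, so these counts cannot be read as a trait of germline genes. Tdrd6 and Dmrtb1 were listed in all 4 within-line comparisons, 2 of 35 genes or 5.71%, beside 8.87% of all genes.

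**Figure D2:**
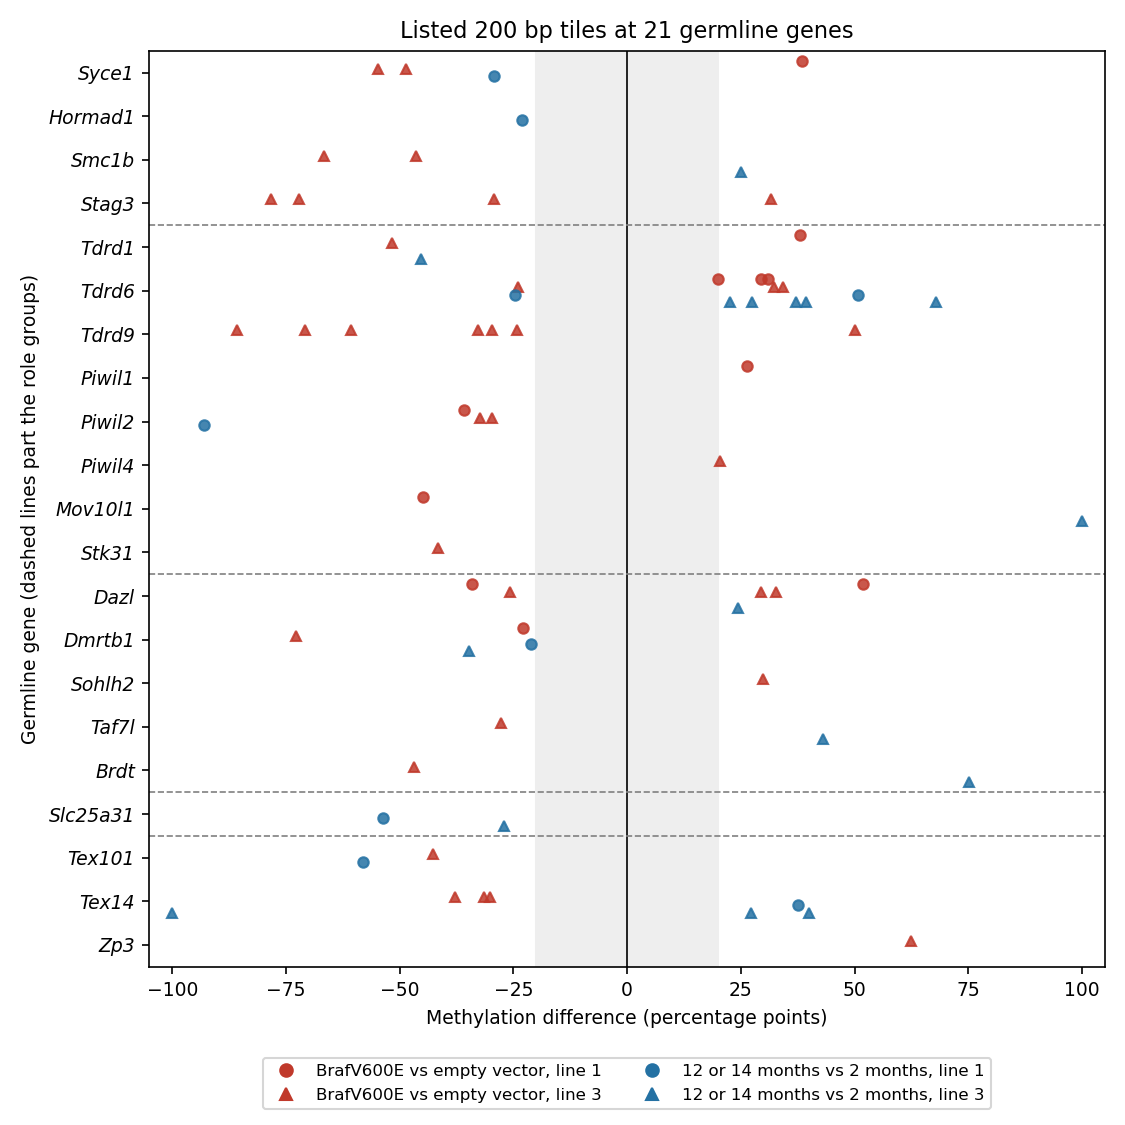
Methylation difference in percentage points (horizontal axis) of each listed tile at the 21 germline genes that have one, by comparison (colour) and organoid line (symbol); the grey band from -20 to 20 holds no listed tile. Tdrd9, Stag3 and Smc1b show most of their tiles at negative values with BrafV600E in line 3, and Tdrd6 most at positive values.

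Among the 13 genes of the piRNA pathway and transposon defence, 8 carried a tile (61.5%, against 44.9% of all genes). With BrafV600E 5 of the 13 had a gain in either line (38.5%, against 27.4%) and 6 a loss (46.2%, against 24.8%). After long culture 2 had a gain (15.4%, against 22.3% of all genes) and 3 a loss (23.1%, against 19.0%). Tdrd6 encodes a multi-Tudor scaffold of the chromatoid body in spermatids (chr17:43615334-43631846, GRCm38) and had the most listings. Its gains lay in a run of tiles from 43629201 to 43630400, between 1546 and 2546 bp inside the higher-coordinate end of the gene. With BrafV600E the authors' deposited table gives gains of 31.0, 29.5 and 20.1 points at 3 tiles of Tdrd6 in line 1. In line 3 it gives gains of 32.2 and 34.2 points at 2 tiles, and a loss of -24.0 points at a tile 3346 bp inside that end. The tile that starts at 43629401 gained in both lines, at 31.0 points in line 1 and 34.2 points in line 3, per the authors' deposited tables.

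After long culture the same stretch of Tdrd6 was listed again. In line 3 the authors' deposited table gives gains of 27.4, 22.6, 67.9, 37.1 and 39.3 points at 5 tiles of Tdrd6. In line 1 it gives 50.8 points at the tile that starts at 43629801, which gained 67.9 points in line 3, and -24.7 points at the adjacent tile. That adjacent tile, which starts at 43630001, thus moved in opposite directions in the lines after long culture. With BrafV600E the same tile gained 29.5 points in line 1 of the authors' deposited table. The 2 comparisons use different libraries, and no start of Tdrd6 was at hand to place the run relative to its promoter.

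**Figure D3:**
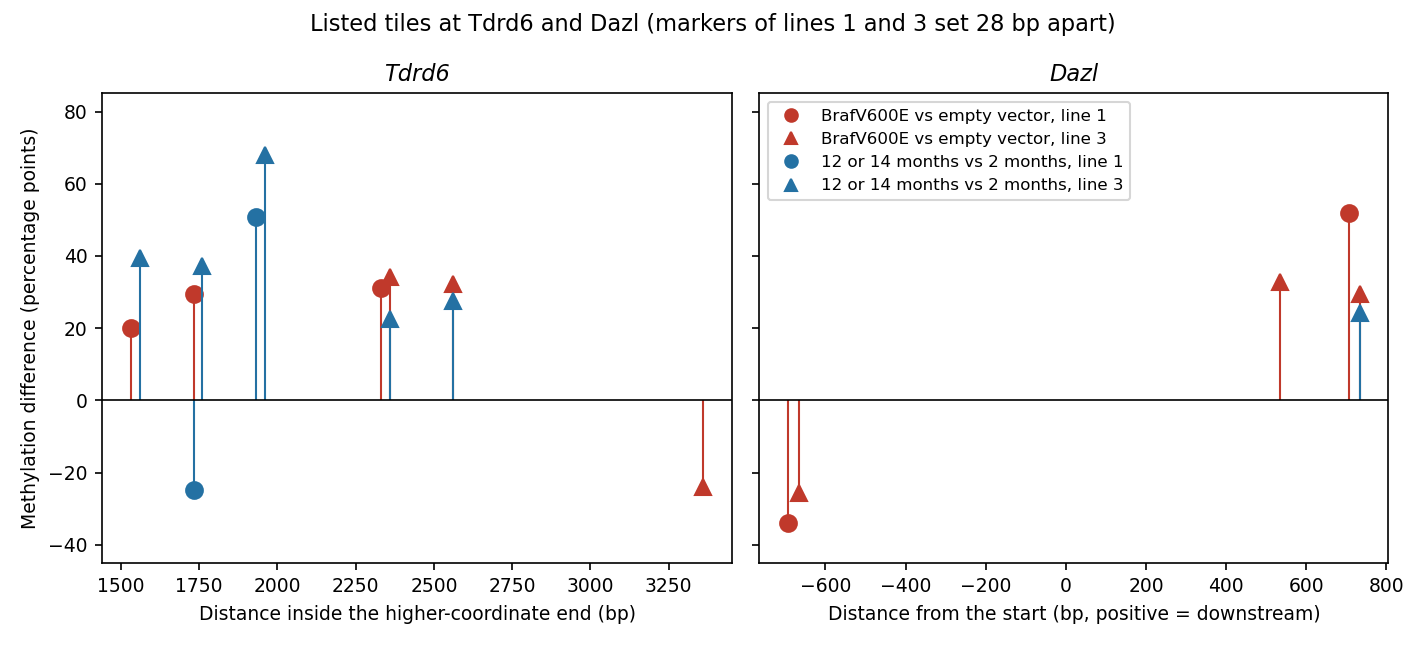
Methylation difference in percentage points (vertical axis) of the listed tiles at Tdrd6, by distance inside its higher-coordinate end, and at Dazl, by distance from its start, both in bp; colour gives the comparison and symbol the organoid line. At Tdrd6 the gains reach 67.9 points in line 3 after long culture, and at Dazl a gain at 720 bp and a loss at -680 bp appear in both lines with BrafV600E.

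Tdrd9, an RNA helicase of the piRNA pathway (chr12:111971488-112068854), was listed in 1 comparison. With BrafV600E in line 3 the authors' deposited table gives losses of -24.3, -60.7, -29.6, -70.7, -32.7 and -85.7 points and a gain of 50.0 points. The loss of -24.3 points lay 141 bp downstream of the start and the other losses from 18941 to 74541 bp into the gene. Line 1 listed 0 tiles of Tdrd9. Tdrd1, another Tudor protein of the pathway, gained 38.1 points at its start in line 1 with BrafV600E and lost -51.6 points 19988 bp from the nearest start in line 3, per the authors' deposited tables. After long culture it lost -45.3 points 509 bp upstream of the start in line 3 of the authors' deposited table. The lines thus listed different tiles of Tdrd1.

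Piwil2 encodes a PIWI protein that carries piRNAs in the male germ line (chr14:70372477-70436898), and its 4 listings were losses. With BrafV600E the tile that starts at 70421401 lost -35.9 points in line 1 and -29.8 points in line 3 in the authors' deposited tables. A further tile lost -32.3 points in line 3 with BrafV600E, and the adjoining one -93.0 points in line 1 after long culture, per the authors' deposited tables. Piwil2 was thus listed as lost in 3 of the 4 within-line comparisons. The other PIWI genes had 1 tile each, both with BrafV600E, at 26.3 points for Piwil1 in line 1 and 20.5 points for Piwil4 in line 3 of the authors' deposited tables. Mov10l1, the helicase that feeds transcripts into piRNA production, lost -44.8 points at 1 tile in line 1 with BrafV600E and gained 100 points at another in line 3 after long culture in the authors' deposited tables. Stk31, a kinase-like Tudor protein gene, lost -41.6 points at 1 tile in line 3 with BrafV600E in the authors' deposited table. Mael, Asz1, Tex19.1, Tex19.2 and the RNA helicase gene Ddx4 had 0 listed tiles.

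Of the 10 genes of the synaptonemal complex, chromosome axis, cohesin and recombination, 4 carried a tile (40.0%, against 44.9% of all genes). With BrafV600E 2 of the 10 had a gain in either line (20.0%, against 27.4%) and 3 a loss (30.0%, against 24.8%). After long culture 1 had a gain (10.0%, against 22.3% of all genes) and 2 a loss (20.0%, against 19.0%). Syce1, a central element protein of the synaptonemal complex (chr7:140777229-140787854), changed 9754 bp downstream of its start, near the far end of the gene. At the tile that starts at 140778001, the authors' deposited tables give a gain of 38.4 points in line 1 and a loss of -48.5 points in line 3 with BrafV600E. The adjoining tile lost -54.7 points in line 3 with BrafV600E, and after long culture the first tile lost -29.2 points in line 1, per the authors' deposited tables. The direction at Syce1 was therefore opposite in the lines with BrafV600E.

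Stag3, the meiotic cohesin subunit (chr5:138272514-138312397), was listed with BrafV600E in line 3 alone. The authors' deposited table gives losses of -29.2, -72.2 and -78.3 points and a gain of 31.6 points, at tiles 609 to 8009 bp upstream of the annotated start used here. All 4 tiles also lie in the neighbouring genes Gal3st4 or Gpc2, so these changes cannot be assigned to Stag3. Smc1b, the meiotic cohesin partner of Stag3, lost -46.3 points 257 bp downstream of its start and -66.7 points at a tile that Fam118a shares, both with BrafV600E in line 3 of the authors' deposited table. After long culture it gained 25.1 points in line 3 of the authors' deposited table, at a tile 343 bp upstream that the neighbour Ribc2 shares. Hormad1, a chromosome axis protein gene, lost -23.1 points 177 bp upstream of its start in line 1 after long culture in the authors' deposited table. Sycp1, Sycp2, Sycp3, Tex12, Tex11 and Spo11, which makes the meiotic DNA breaks, had 0 listed tiles.

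All 5 genes of germ cell RNA binding, transcription and chromatin carried a tile, beside 44.9% of all genes. With BrafV600E 2 of the 5 had a gain in either line, beside 27.4% of all genes, and 4 a loss, beside 24.8%. After long culture 3 had a gain, beside 22.3% of all genes, and 1 a loss, beside 19.0%. Dazl, whose product binds RNA and is needed for germ cell development (chr17:50279393-50293620), had a gain and a loss on either side of its start in both lines with BrafV600E. In the authors' deposited tables the tile 720 bp downstream gained 51.8 points in line 1 and 29.5 points in line 3. They also list the tile 680 bp upstream as lost, with -34.0 points in line 1 and -25.8 points in line 3 in the authors' deposited tables. Line 3 also gained 32.7 points 520 bp downstream with BrafV600E in the authors' deposited table. After long culture the tile 720 bp downstream gained 24.3 points in line 3 of the authors' deposited table, and line 1 listed 0 tiles of Dazl. The downstream tile was thus a gain in each of the 3 comparisons that listed it. No tile between 680 bp upstream and 520 bp downstream of the Dazl start was listed.

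Dmrtb1, a DM-domain transcription factor gene that in mice controls the switch from mitosis to meiosis in spermatogonia (chr4:107676288-107704011), was listed as lost in all 4 within-line comparisons, each time at another tile. With BrafV600E it lost -22.8 points in line 1 and -72.7 points in line 3, both over 2 kb from the nearest start, per the authors' deposited tables. After long culture it lost -21.1 points in line 1 at a tile 89 bp downstream of a start and -34.7 points in line 3 at a tile 311 bp upstream of one, per the authors' deposited tables. Taf7l, a germ cell form of a general transcription factor subunit on the X chromosome, lost -27.7 points 1190 bp downstream of its start with BrafV600E in line 3 of the authors' deposited table. It gained 43.1 points 190 bp downstream after long culture in line 3 of the authors' deposited table. Brdt, the testis bromodomain protein gene, had the same pair of directions in line 3, with a loss of -46.9 points 706 bp downstream of the start with BrafV600E and a gain of 75.2 points 28106 bp downstream after long culture in the authors' deposited tables. Sohlh2, a helix-loop-helix regulator of early germ cells, gained 29.9 points at its far end with BrafV600E in line 3 of the authors' deposited table.

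Of the 3 testis versions of housekeeping proteins, Slc25a31 alone carried tiles (33.3%, against 44.9% of all genes). It encodes the testis ADP/ATP carrier (chr3:40708871-40726094) and was listed after long culture in both lines. The authors' deposited tables give losses of -53.7 points 371 bp upstream of the start in line 1 and -27.0 points 429 bp downstream in line 3. Neither tile was listed in the other line. Rpl10l, a ribosomal protein retrogene, and Pdha2, the testis pyruvate dehydrogenase subunit gene, had 0 listed tiles.

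Of the 4 genes of the cell surface, intercellular bridge and egg coat, 3 carried a tile, beside 44.9% of all genes. Tex14, which keeps the bridges between germ cells open (chr11:87405013-87555823), had 7 listings. With BrafV600E in line 3 the authors' deposited table gives losses of -37.8, -31.4 and -30.1 points, the first at the start of the gene. After long culture the authors' deposited tables give a gain of 37.5 points 835 bp downstream of the start in line 1, and a loss of -100 points and gains of 27.1 and 40.0 points in the body of the gene in line 3. The tile that starts at 87468601 lost -31.4 points with BrafV600E and gained 27.1 points after long culture, both in line 3 of the authors' deposited tables. Tex101, a germ cell surface glycoprotein gene, lost -42.8 points 550 bp downstream of its start with BrafV600E in line 3 and -58.1 points 150 bp downstream after long culture in line 1, per the authors' deposited tables. Zp3, the egg coat sperm receptor gene, gained 62.5 points 195 bp downstream of its start with BrafV600E in line 3 of the authors' deposited table, at its only tile. Dpep3, a testis membrane dipeptidase gene, had 0.

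Tiles were then read by distance from the annotated start, which was available for 31 of the 35 genes and not for Spo11, Tex11, Tdrd6 and Piwil2. Of 54 listings at these 31 genes, 24 lay within 1 kb of a start, with 10 gains and 14 losses. They fell on 13 of the 31 genes (41.9%, against 24.4% of all genes with a start). The other 30 held 9 gains and 21 losses. With BrafV600E in line 3, 6 of the 31 genes had a loss within 1 kb of a start (19.4%, against 6.47% of 17492 genes), which were Dazl, Tex14, Tdrd9, Smc1b, Tex101 and Brdt. In line 1 Dazl alone did (3.23%, against 3.55% of all genes). After long culture 4 genes had such a loss in line 1 (12.9%, against 3.99%), which were Hormad1, Dmrtb1, Slc25a31 and Tex101, and 3 in line 3 (9.68%, against 2.76%), which were Tdrd1, Dmrtb1 and Slc25a31.

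Gains within 1 kb of a start were found with BrafV600E at 2 of the 31 genes in line 1 (6.45%, against 8.94% of all genes) and at 3 in line 3 (9.68%, against 9.43%). After long culture they were found at 1 gene in line 1 (3.23%, against 5.21%) and at 3 in line 3 (9.68%, against 11.6%). Near starts, losses were thus listed at a larger share of the germline genes than of all genes in 3 of the 4 within-line comparisons, while gains stayed near the background in all 4. A tile can be lost only where the control was methylated, and starting levels were not used here, so their part in the shares was not tested.

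**Figure D4:**
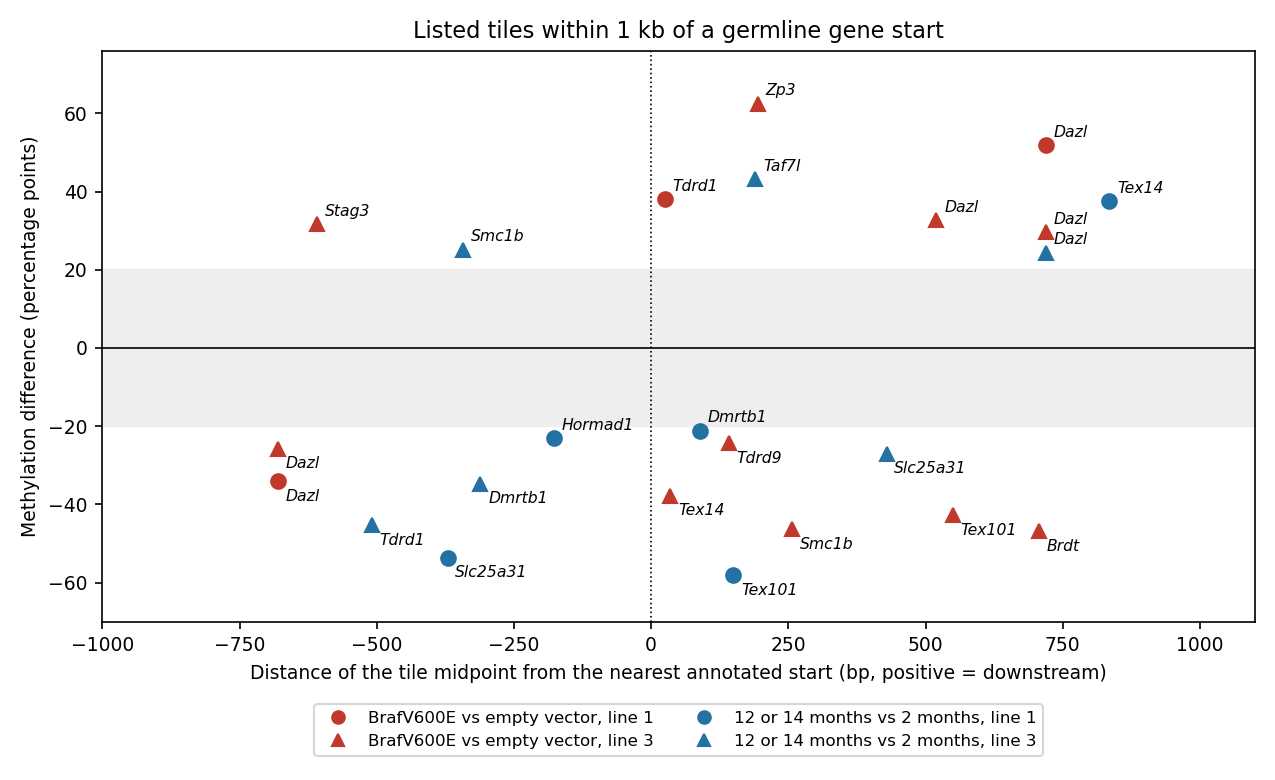
Methylation difference in percentage points (vertical axis) of the 24 listings within 1 kb of a germline gene start, by distance of the tile midpoint from the nearest annotated start in bp (horizontal axis); colour gives the comparison, symbol the organoid line, and the grey band holds no listed tile. Of the listings, 14 lie at negative and 10 at positive values.

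The start windows that a listed tile reached show where these tiles lay in the sequence. The windows run from 250 bp before to 50 bp after a start and are taken from RefSeq with build GRCm38.p6, 5′ to 3′ on the strand of the gene. The 4 genes shown are those with a window in which a listed tile spanned CpGs, each with the window that holds most of them. Capitals mark the CpGs inside the listed tiles. A tile has a single difference, and which of its CpGs were read is not given, so capitals do not show that a CpG changed.
Hormad1: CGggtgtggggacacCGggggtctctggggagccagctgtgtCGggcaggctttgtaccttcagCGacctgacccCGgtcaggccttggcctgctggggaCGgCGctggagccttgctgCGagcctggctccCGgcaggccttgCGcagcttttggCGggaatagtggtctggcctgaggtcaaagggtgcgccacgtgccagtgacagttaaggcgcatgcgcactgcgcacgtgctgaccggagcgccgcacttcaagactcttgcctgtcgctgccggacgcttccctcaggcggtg
Dmrtb1: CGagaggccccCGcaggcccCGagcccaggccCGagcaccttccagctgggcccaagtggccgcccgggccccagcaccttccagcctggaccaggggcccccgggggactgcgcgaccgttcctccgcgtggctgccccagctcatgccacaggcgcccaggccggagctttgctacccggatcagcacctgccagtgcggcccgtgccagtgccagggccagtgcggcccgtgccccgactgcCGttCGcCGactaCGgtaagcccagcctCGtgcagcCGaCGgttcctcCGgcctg
Tex14: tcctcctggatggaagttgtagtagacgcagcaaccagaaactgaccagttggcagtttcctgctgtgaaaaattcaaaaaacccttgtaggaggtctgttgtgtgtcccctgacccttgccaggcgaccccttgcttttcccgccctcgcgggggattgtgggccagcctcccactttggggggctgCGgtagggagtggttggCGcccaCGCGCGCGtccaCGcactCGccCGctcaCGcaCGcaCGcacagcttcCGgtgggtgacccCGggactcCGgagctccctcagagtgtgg
Tdrd1: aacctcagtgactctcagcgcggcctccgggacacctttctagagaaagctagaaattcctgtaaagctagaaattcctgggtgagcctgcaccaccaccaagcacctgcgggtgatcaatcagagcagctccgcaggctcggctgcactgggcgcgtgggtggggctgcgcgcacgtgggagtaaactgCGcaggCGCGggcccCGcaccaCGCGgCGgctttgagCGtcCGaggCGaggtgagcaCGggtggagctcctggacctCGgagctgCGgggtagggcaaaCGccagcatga
The Hormad1 window (chr3:95559427-95559726, plus strand) holds 24 CpGs, of which 11 lie in the tile that lost -23.1 points in line 1 after long culture in the authors' deposited table. The Dmrtb1 window (chr4:107683540-107683839, minus strand) holds 28 CpGs, of which 12 lie in the tiles lost after long culture, the first group in the line 3 tile and the last in the line 1 tile. In the Tex14 window (chr11:87404815-87405114, plus strand) 15 of 20 CpGs lie in the tile that lost -37.8 points with BrafV600E in line 3 of the authors' deposited table. In the Tdrd1 window (chr19:56826025-56826324, plus strand) 14 of 25 CpGs lie in the tile that gained 38.1 points with BrafV600E in line 1 of the authors' deposited table. Hormad1 and Tdrd1 each have another start whose window largely repeats the one shown (chr3:95559429-95559728 and chr19:56825959-56826258), with 10 and 9 CpGs in the same tiles. Each tile was listed in 1 within-line comparison. Windows of Tdrd9 and Smc1b were reached by a tile over 8 and 7 bases without a CpG.

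The start windows of the germline genes were also read for motifs of their known repressors, on both strands. The palindromic E-box CACGTG, bound by MGA with MAX, was found in a window of 16 of 31 germline genes, or 51.6%, and of 8.91% of 17492 genes. The E2F-type motif GCGGGA, or TCCCGC on the other strand, was found at 13 germline genes, or 41.9%, and at 28.4% of all genes. CCGG, the site of MspI, the enzyme commonly used for reduced representation libraries, was found at 64.5% of the germline genes and 64.5% of all genes. The labels used here name no enzyme. The windows held a median of 19 CpGs at germline genes and 13 at all genes. Each of the motifs contains a CpG, and the part of CpG content in these shares was not tested. No motif contains another, though neighbouring matches can share bases, and a match is a run of letters, not a shown binding site.

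Of the 16 germline genes with the E-box, 8 had a listed tile within 1 kb of a start (50.0%, against 41.9% of the 31 germline genes and 24.4% of all genes), 3 had tiles elsewhere and 5 had none. No listed tile covered a whole motif at those 8 genes, and the tile near the Stag3 start also lies in Gpc2. The stretches of the 8 are shown with 10 bases on either side, 5′ to 3′ on the strand of the gene, and the motif in capitals. Where a window held more than 1 match, the one nearest the start is given.
Brdt: caggcacagtCACGTGgcagaccctg
Hormad1: gcgcactgcgCACGTGctgaccggag
Slc25a31: caactggaaaCACGTGttatggtcac
Stag3: cgctggagccCACGTGacaggactgc
Taf7l: cctcttatacCACGTGacagaactcg
Tdrd1: gggctgcgcgCACGTGggagtaaact
Tdrd9: acgaggctccCACGTGcatgcagggc
Zp3: gaataggaatCACGTGgagtgtcttt
The motif began 78 bp before the start at Brdt (chr5:107331106-107331131), 20 bp before it at Hormad1 (chr3:95559647-95559672) and 93 bp before it at Slc25a31 (chr3:40708768-40708793). At Tdrd1 (chr19:56826188-56826213) it began 11 bp before the start, at Taf7l (chrX:134476524-134476549) 49 bp and at Tdrd9 (chr12:111971454-111971479) 95 bp before it. At Stag3 (chr5:138280329-138280354) the distance was 170 bp and at Zp3 (chr5:135979914-135979939) 181 bp. The windows of Hormad1 and Tdrd9 hold a second match, which began 57 bp before the start at Hormad1 and 165 bp before it at Tdrd9. Ddx4, Mael, Sycp1, Sycp3 and Tex12 hold the E-box and had 0 listed tiles, so the motif was present in genes with and without a listed tile.

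**Figure D5:**
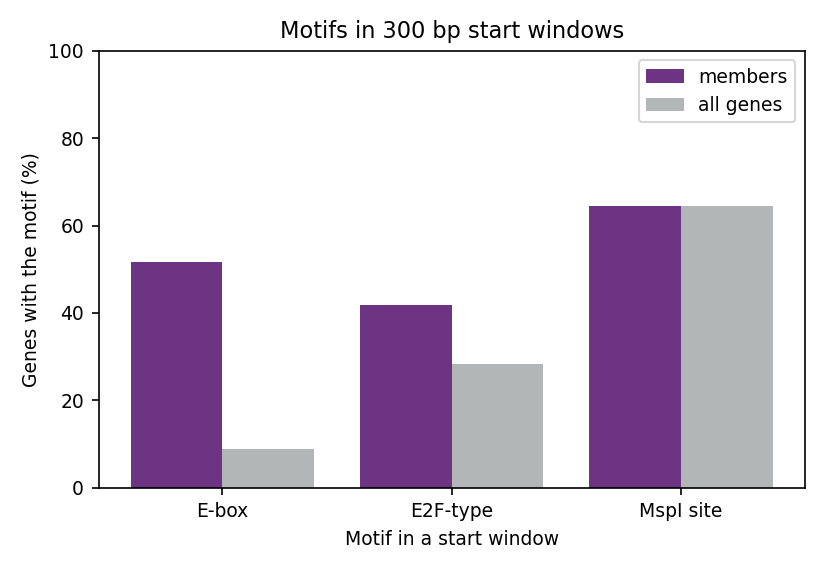
Share of genes, in percent, with a motif in a start window of 300 bp, for the 31 germline members and for all 17492 genes. The E-box bar of the members stands at 51.6% and that of all genes at 8.91%, while the MspI site bars are level at 64.5%.

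A wider list of 50 other germline genes was counted the same way. Of these, 25 carried a tile (50.0%, against 44.9% of all genes and 60.0% of the 35 genes above). With BrafV600E in line 3, 9 of the 50 had a loss, or 18.0%, beside 20.3% of all genes, and 7 had a gain, or 14.0%, beside 20.9%. After long culture in line 3, 12 of the 50 had a gain, or 24.0%, beside 20.3%, and 6 had a loss, or 12.0%, beside 12.2%. In line 1 after long culture, 4 of the 50 had a loss, or 8.0%, beside 10.9%, and 6 had a gain, or 12.0%, beside 8.54%. Near starts, 5 of the 37 with an annotated start had a loss with BrafV600E in line 3 (13.5%, against 6.47% of all genes). After long culture 1 of the 37 had a loss near a start in line 1 (2.7%, against 3.99%) and 2 in line 3 (5.41%, against 2.76%). Gains near starts after long culture were found at 5 of the 37 in line 1 (13.5%, against 5.21%) and at 8 in line 3 (21.6%, against 11.6%). Over the span plus 2 kb in line 1 with BrafV600E, 3 of the 50 had a loss, or 6.0%, beside 10.5% of all genes. In the same comparison 7 had a gain, or 14.0%, beside 17.8%. Over this window the shares with a loss were lower in the wider list than in the 35 genes with BrafV600E in both lines. They were also lower after long culture in line 1, but not in line 3, at 12.0% against 11.4%. The differences were not tested.

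Of the 50 genes, 3 had tiles in both lines with BrafV600E (6.0%, against 18.0% of all genes) and 8 after long culture (16.0%, against 12.3%). Of these, 1 kept 1 direction with BrafV600E and 2 did so after long culture, counts that have no share over all genes beside them. Terb1, which ties meiotic telomeres to the nuclear envelope, gained with BrafV600E in the authors' deposited tables, by 24.5 points at 1 tile in line 1 and by 91.0 points on average at 3 tiles in line 3. After long culture the authors' deposited tables give Terb1 an average of 97.7 points at 2 tiles in line 1 and of -34.5 points at 4 tiles in line 3, so the lines went opposite ways. Syce2, a partner of Syce1 in the central element, gained after long culture in both lines. The authors' deposited tables give Syce2 52.0 points on average at 5 tiles in line 1 and 26.2 points at 1 tile in line 3. With BrafV600E they give it losses in line 3, of -61.3 points on average at 2 tiles. Tex15, which in mice acts in piRNA-directed DNA methylation, gained 35.5 points at 1 tile in line 1 and 35.2 points on average at 2 tiles in line 3 after long culture, per the authors' deposited tables.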

How the data were processed

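Reduced representation bisulfite libraries of 8 organoid cultures were compared by the authors within organoid lines 1 and 3. The build is GRCm38 (mm10), and the tools named are Bismark 0.14.3 for bisulfite reads, methylKit 1.7.4 for differences, and FastQC 0.11.7 and Trim Galore 0.4.4 for read quality and trimming, per the submitters' processing notes. How these were set, and the coverage minimum, is not given in the sources used here. For each 200 bp tile the 8 tables that the authors deposited hold a p-value with its q-value, and the difference in percent methylation, per the file headers. Gained and lost tiles are in separate tables, and their values start at 20 points, with q-values up to 0.01. No read counts or per-sample levels were used, so no interval is given.

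Tiles that overlapped a gene span plus 2 kb by at least 1 bp were assigned to the gene, so a tile can belong to several genes. Spans came from a RefSeq table of GRCm38.p6, and starts and their sequences from RefSeq windows of the same build; all 35 symbols matched, 31 with a start. In 478 of 478 pairs of overlapping windows on opposite strands the sequences matched as reverse complements. The overlap step was tested on simulated data and matched a direct count in 20 of 20 runs. Counts were made with Python 3.11.15, numpy 2.4.6 and pandas 2.3.3, and figures with matplotlib 3.10.9.

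The genes and lists were chosen with earlier results of these data known. Genes with a tile in both lines of a comparison or with at least 3 listings were described tile by tile, the others by their values. In the other lists, genes with 1 direction in both lines were named, up to 8 per list and comparison. Mga, Tet1 and Dnmt1 of the repressor list were described outside this rule, and other listed genes of that list were not described. No test over samples was made, since the tables used here hold no levels per library. The share over all genes stands beside the counts of genes with a tile, except counts of 1 direction in both lines. Alternatives were a difference of at least 40 points, q under 0.001, the span alone, 1 kb around gene ends, the span plus 5 kb, at least 2 tiles per direction, and either line alone. Leaving out tiles inside another gene was added after seeing the data.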

Additional observations from a re-analysis of the deposited data

Results flagged for a closer look

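Lines 1 and 3 moved in opposite directions at the same tile of a germline gene in 2 cases, and the difference between the lines was not tested. At Syce1, the tile that starts at 140778001 had a difference of 38.4 points in line 1 and -48.5 points in line 3 with BrafV600E in the authors' deposited tables. At Tdrd6, the tile that starts at 43630001 had a difference of -24.7 points in line 1 and 37.1 points in line 3 after long culture in the authors' deposited tables. The other tiles listed in both lines of a comparison, 4 of 5 with BrafV600E and 1 of 2 after long culture, had the same direction in the lines.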

How the results depend on the processing

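No paired analysis was possible because the counts come from no test: each deposited difference is already taken within a line, and no levels per library or tiles short of the limits were at hand for a fit over both lines. As deposited, 10 germline genes had a gain and 15 a loss with BrafV600E, 6 had tiles in both lines, and after long culture 7 had a gain, 9 a loss and 4 tiles in both lines. With at least 40 points these became 3 with a gain and 0 in both lines with BrafV600E, and 4 with a gain, 5 with a loss and 1 in both lines after long culture. With q under 0.001, 5 had a loss and 1 had tiles in both lines after long culture. Within 1 kb of gene ends, 5 had a gain, 9 a loss and 2 both lines with BrafV600E, and 4, 5 and 1 after long culture. With at least 2 tiles per direction the counts were 2, 6 and 1 with BrafV600E and 2, 0 and 0 after long culture. Leaving out 1 line gave 5 to 7 genes with a gain and 4 to 14 with a loss with BrafV600E, and 2 to 7 with a gain and 4 to 7 with a loss after long culture; the lower counts are without line 3, except for losses after long culture, where 4 is without line 1. The remaining 27 of 50 recomputed counts stayed within 1.5 times, including all with the span alone, the span plus 5 kb, or without tiles inside another gene. Of 132 recomputed means of named genes, 121 stayed within their spread, 9 moved further and 2 changed sign. The sign changes came with q under 0.001, to -24.7 points for Tdrd6 in line 1 and 40.0 points for Tex14 in line 3. Both were after long culture. At Tdrd6 the gain of 50.8 points dropped out, and at Tex14 the loss of -100 points and the gain of 27.1 points did. A mean whose tiles all dropped out was not recomputed, and many of the 121 kept the same tiles and so the same value. The spread was the standard deviation of the 2 line means, or of the tiles where 1 line alone was listed. The count of 121 is thus no measure of how stable the means were. Depth is unknown, so tiles listed in 1 line alone cannot be told from tiles not covered in the other.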

Other observations

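A list drawn up as repressors of germline genes held 23 genes and included Tet1, whose product oxidizes 5-methylcytosine. Of these 23 genes, 12 carried a tile (52.2%, against 44.9% of all genes) and 11 carried 0. E2f6, Max, L3mbtl2, Pcgf6, Rnf2 and Dnmt3b were among the 11. Mga, which encodes the E-box protein of the complex, had 6 gains and 1 loss with BrafV600E in line 3, between -27.5 and 86.2 points, and 1 gain of 46.8 points after long culture in line 3 of the authors' deposited tables; line 1 listed 0 tiles of Mga. Ehmt1, a histone H3 lysine methyltransferase gene, was the only gene of the list with tiles of 1 direction in both lines of a comparison. With BrafV600E the authors' deposited tables give Ehmt1 gains of 37.8 points at 1 tile in line 1 and 27.4 points at 1 tile in line 3. After long culture they give it 1 gain of 37.2 points and 1 loss of -20.7 points in line 3. Tet1, a 5-methylcytosine oxidase gene, had 6 gains and 2 losses in line 1 and 2 gains and 1 loss in line 3 with BrafV600E. After long culture Tet1 had 1 loss in line 1 and 4 gains and 1 loss in line 3 of the authors' deposited tables. Dnmt1, the maintenance methyltransferase gene, lost methylation at 2 tiles in line 1 with BrafV600E, at -54 and -100 points, per the authors' deposited tables. Line 3 listed 0 tiles of Dnmt1 with BrafV600E. It did list Dnmt1 after long culture, with 1 gain of 32.1 points and 1 loss of -86.7 points, per the authors' deposited tables.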
